A study of Mus musculus with 3 samples.

Results

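Toll-like receptors are the receptors through which macrophages, monocytes, neutrophils and dendritic cells sense molecules of bacteria, viruses and fungi. Their expression was followed through 10 of the 31053 mouse genes in the files: the receptors Tlr1, Tlr2, Tlr4, Tlr6, Tlr7, Tlr9 and Tlr13, the co-receptors Cd14 and Ly96, and the adaptor Myd88. The genes were chosen by symbol and read in every barcode that held at least 300 genes, fewer than 100000 unique molecular identifiers (UMIs, the counted RNA molecules) of mouse genes and less than 10% mitochondrial UMIs. At the cell surface, Tlr4 binds lipopolysaccharide with Ly96, to which Cd14 hands it, while Tlr2 pairs with Tlr1 or Tlr6 on lipopeptides. Tlr7, Tlr9 and Tlr13 bind nucleic acids in endosomes, and all of these receptors signal through Myd88 to nuclear factor kappa B and inflammatory genes. Cd14 is best known as a monocyte and macrophage protein, and in human myeloid cells it is a known target of active vitamin D3.

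Single-cell RNA was counted in droplet libraries, with a single library for each of 3 conditions. Co-Mac holds untreated bone marrow cells of C57/BL6 mice from 7-day cultures with GM-CSF, a cytokine that yields macrophages, dendritic cells and granulocytes side by side. VD-Mac holds the part of these cultures that received 1 µM 1,25 dihydroxy-cholecalciferol, the active form of vitamin D3 (VD3), for 24 h from day 7. The hSTSG library holds cells from human split-thickness skin that had lain under the skin of C57BL6/J mice for 14 days, with tissue of 5 mice pooled, and only mouse genes were counted in it. With 1 library per condition there is no replicate, so a ratio between libraries carries no test, and its 95% interval covers counting error alone. Treatment cannot be told apart from any other difference between the cultures, nor graft from culture with its different preparation.

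Of 7866 Co-Mac barcodes, 7257 were kept, which hold 132574308 UMIs (median 15804). VD-Mac kept 8825 of 9794 barcodes with 116461484 UMIs (median 12089). The graft kept 2144 of 2644 with 22646544 UMIs (median 6637.5). Among kept barcodes, 15 sequences occurred in both cultures, 3 in Co-Mac and the graft, and 6 in VD-Mac and the graft. The VD3 label was checked on Cyp24a1, which encodes the enzyme that degrades VD3 and is induced by its receptor. It had 1 UMI in Co-Mac (0.00754 CPM, its UMIs per 1000000 UMIs of all genes) and 36662 in VD-Mac (315 CPM), a log2 ratio of 15.35 with an interval of 12.87 to 20.65. The receptor gene itself, Vdr, stood at 51.1 CPM in Co-Mac and 135 CPM in VD-Mac (log2 1.40, interval 1.36 to 1.44). The library labelled as treated is thus the one with the VD3 response. In the graft Cyp24a1 had 0 UMIs, which allows up to 0.132 CPM, and Vdr had 52.1 CPM.

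Cells were clustered in each library by itself, without the genes described here, and clusters were named from marker genes. Macrophage-like cells made up 2090 cells in Co-Mac (clusters 2 and 3), 1795 in VD-Mac (cluster 3 and cycling clusters 5.0, 5.1 and 5.3) and 505 in the graft (cluster 2, led by Mmp12, Gpnmb and Spp1, and cluster 4, led by Cd163 and Lyve1). They held 46.9% of all UMIs in Co-Mac but 29.5% in VD-Mac. Mature dendritic cells numbered 2638 in Co-Mac (clusters 0 and 1) and 3326 in VD-Mac (clusters 0 and 1), and their part of the UMIs was 31.0% and 42.9%. Neutrophil-like cells numbered 1021 in Co-Mac, 1089 in VD-Mac and 513 in the graft (clusters 0 and 9). A VD-Mac cluster of 50 such cells, 9.0, had the precursor genes Ltf, Ngp and Camp among its 10 leading genes and no neutrophil marker, so the cultures' neutrophils were compared only through their largest cluster, which is cluster 4 in both (928 and 990 cells). Unnamed clusters held 15.8% of cells in Co-Mac, 25.5% in VD-Mac and 1.91% in the graft.

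The first question was whether VD3 raised Cd14. Over all kept cells Cd14 had 5872 UMIs in Co-Mac (44.3 CPM) and 4769 in VD-Mac (40.9 CPM), a log2 ratio of -0.11 (interval -0.17 to -0.06). That is close to the median of -0.10 over the 7732 genes that reach 10 CPM in one library or the other, so Cd14 did not rise in the summed RNA of the culture. With the cell types of VD-Mac weighted as in Co-Mac the sign turned, to 0.30. Macrophage-like cells carried 75.1% of its UMIs in Co-Mac and 61.0% in VD-Mac, and the make-up of the cultures differed as given above. Within macrophage-like cells Cd14 was 70.9 CPM in Co-Mac and 84.8 CPM in VD-Mac, a log2 ratio of 0.26 (interval 0.19 to 0.33), higher than 80.8% of genes measured there. The rise was therefore small and far from 2-fold. The make-up of the macrophage-like group also differed, with 65.9% of its UMIs in cycling clusters in Co-Mac and 40.6% in VD-Mac. The part of this in the rise was not tested. With VD-Mac weighted to the cycling share of Co-Mac, a comparison added after the values were seen, Cd14 was 75.8 CPM there and the log2 ratio 0.0967. No rise was present in the cycling macrophage-like clusters, where Cd14 was 64.2 CPM in Co-Mac and 63.7 CPM in VD-Mac (log2 -0.01, interval -0.12 to 0.10). In the other macrophage-like clusters, cluster 3 of each culture, it was 83.9 CPM and 99.1 CPM (log2 0.24, interval 0.15 to 0.33). An unnamed VD-Mac cluster of 447 cells led by Mrc1, cluster 6, had 48.8 CPM, and counting such clusters as macrophage-like brings the log2 ratio to 0.06. Its sign also depended on how clusters were named. With Pf4 kept among the platelet genes that withhold a name, it was -0.40 at resolution 0.8 and -0.15 with 30 principal components. Only VD-Mac clusters lost a name by this, of 515 and 1148 cells. That left 1070 and 433 macrophage-like cells in VD-Mac, against 1953 and 2093 in Co-Mac. Over 11 other settings in all, the ratio ranged from -0.40 to 0.35, and 9 kept its sign.

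Markers of other cell types also differed between the macrophage-like cells of the cultures, which bears on every ratio in them. The 6 monocyte markers summed to 775 CPM in Co-Mac and 283 CPM in VD-Mac, led by Ccr2 and Ifitm6, and the 6 mature dendritic cell markers to 414 and 124 CPM, led by Ccl22. The 10 macrophage markers summed to 1759 and 2605 CPM, led by C1qb. With the cultures clustered together, 1509 Co-Mac cells were named monocyte-like and none of VD-Mac. The 8 neutrophil markers summed to 967 CPM in the macrophage-like cells of Co-Mac and 2101 CPM in those of VD-Mac. S100a8 led them in both, and Retnlg was at 0 in Co-Mac. The part of these differences in the ratios of Cd14 and of the other members was not tested.

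The partners of Cd14 in lipopolysaccharide sensing moved apart from each other. Tlr4 went from 31.9 CPM in Co-Mac to 20.8 CPM in VD-Mac over all kept cells (log2 -0.62, interval -0.69 to -0.55). Within macrophage-like cells, which held 72.0% of its UMIs in Co-Mac, it was 49.0 CPM and 38.5 CPM (log2 -0.35, interval -0.44 to -0.26). The signalling receptor was thus lower in VD-Mac at both levels, by less inside the macrophage-like cells. Ly96, which encodes the protein MD-2 that holds the lipid for Tlr4, went the other way, from 31.3 to 38.5 CPM over all cells (log2 0.30, interval 0.24 to 0.36). This rise was not seen in the mean over cells of CPM, where the log2 ratio was 0.0107. Its RNA was mostly outside the macrophage-like cells: mature dendritic cells held 63.7% of Ly96 UMIs in Co-Mac and 62.0% in VD-Mac. In macrophage-like cells Ly96 rose from 15.8 to 24.9 CPM (log2 0.66, interval 0.52 to 0.79), more than 93.0% of genes there, whereas in mature dendritic cells it was 64.4 CPM in Co-Mac and 55.7 CPM in VD-Mac (log2 -0.21, interval -0.29 to -0.13).

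Tlr2, the shared chain of the lipopeptide receptors, had the largest fall over all kept cells among the members that reach 10 CPM. It had 14232 UMIs in Co-Mac (107 CPM) and 5436 in VD-Mac (46.7 CPM), a log2 ratio of -1.202 (interval -1.25 to -1.16). Macrophage-like cells held 68.7% of its UMIs in Co-Mac and 60.2% in VD-Mac. Within them, where Tlr13 fell further (log2 -0.84), Tlr2 was 157 CPM and 95.3 CPM (log2 -0.72, interval -0.78 to -0.67), lower than all but 9.08% of genes. Tlr1, its partner for triacylated lipopeptides, was rare in both cultures and higher in VD-Mac: 128 UMIs (0.965 CPM) against 319 (2.74 CPM), a log2 ratio of 1.504 (interval 1.204 to 1.81). In macrophage-like cells it was 1.67 CPM and 5.91 CPM (log2 1.82, interval 1.47 to 2.18). Since Tlr1 stayed under 10 CPM, it does not enter the counts of changed genes. Tlr6, the partner for diacylated lipopeptides, was 3.41 CPM in Co-Mac and 2.89 CPM in VD-Mac (log2 -0.24, interval -0.45 to -0.03), and 0.24 with cell types weighted as in Co-Mac. In macrophage-like cells its ratio was not separable from no change at this depth (5.47 and 6.06 CPM; log2 0.15, interval -0.11 to 0.40). VD-Mac thus had less Tlr2 and more Tlr1 RNA, the latter at a low level. A shift between the lipopeptide receptors as a group was not tested.

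Among the nucleic acid sensors, Tlr13, which recognises bacterial ribosomal RNA, fell furthest. Its level was 11.9 CPM in Co-Mac and 5.44 CPM in VD-Mac (log2 -1.13, interval -1.26 to -0.99), and 18.6 against 10.4 CPM in macrophage-like cells (log2 -0.84, interval -1.02 to -0.67). Cluster 3 of the cultures took it past 2-fold, from 24.6 to 12.02 CPM, as the 1 member lower there (5.99% of genes were), while 0 were higher (5.04%). Tlr7, the sensor of single-stranded RNA, was 4.78 CPM and 2.93 CPM over all cells (log2 -0.71, interval -0.90 to -0.52). Macrophage-like cells held 83.4% of its UMIs in Co-Mac and 75.4% in VD-Mac, and within them it was 8.51 and 7.49 CPM (log2 -0.18, interval -0.40 to 0.03). That last interval includes 0, but the value depends on the clustering. It was -0.55 at resolution 0.3 and -1.38 at resolution 0.8 with Pf4 kept among the platelet genes. The latter setting left 1070 of 1585 VD-Mac macrophage-like cells. Tlr9, the sensor of unmethylated CpG DNA, had 13 UMIs in Co-Mac and 14 in VD-Mac (0.0981 and 0.120 CPM). Mature dendritic cells held 10 of the 13 and 8 of the 14, too few for a comparison.

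Myd88, on which all of these receptors draw, was 42.6 CPM in Co-Mac and 27.2 CPM in VD-Mac (log2 -0.65, interval -0.71 to -0.58). In macrophage-like cells it was 59.6 CPM and 42.8 CPM (log2 -0.48, interval -0.56 to -0.39). The annotation places Slc22a14 over Myd88 on the same strand and Acaa1a on the opposite one. The effect of this overlap on the Myd88 count was not tested. Over all kept cells, 6 of the 10 members reached 10 CPM in the higher library. By the rule of at least 2-fold, 0 of them were higher in VD-Mac, where 2.16% of genes were, and 2 were lower, Tlr2 and Tlr13, where 4.63% of genes were. Intervals lay below 0 for 7 members and above 0 for 2, Tlr1 and Ly96, at a depth where those of 54.1% of genes lay below 0 and of 32.7% above. The falls of Tlr2 and Tlr13 were smaller than 2-fold once VD-Mac was weighted to the cell make-up of Co-Mac. Within macrophage-like cells 0 members passed 2-fold upwards (3.49% of genes did) and 0 downwards (5.7% did), and the same held in the cycling clusters (3.57% and 5.84%). The count of 0 lower was lost in other clusterings: Tlr13 was -1.09 at resolution 0.3 and -1.01 at 0.8. With Pf4 kept among the platelet genes at 0.8, which left 1070 of 1585 VD-Mac cells, Tlr13 was -1.69 and Tlr2 -1.14.

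**Figure D1:**
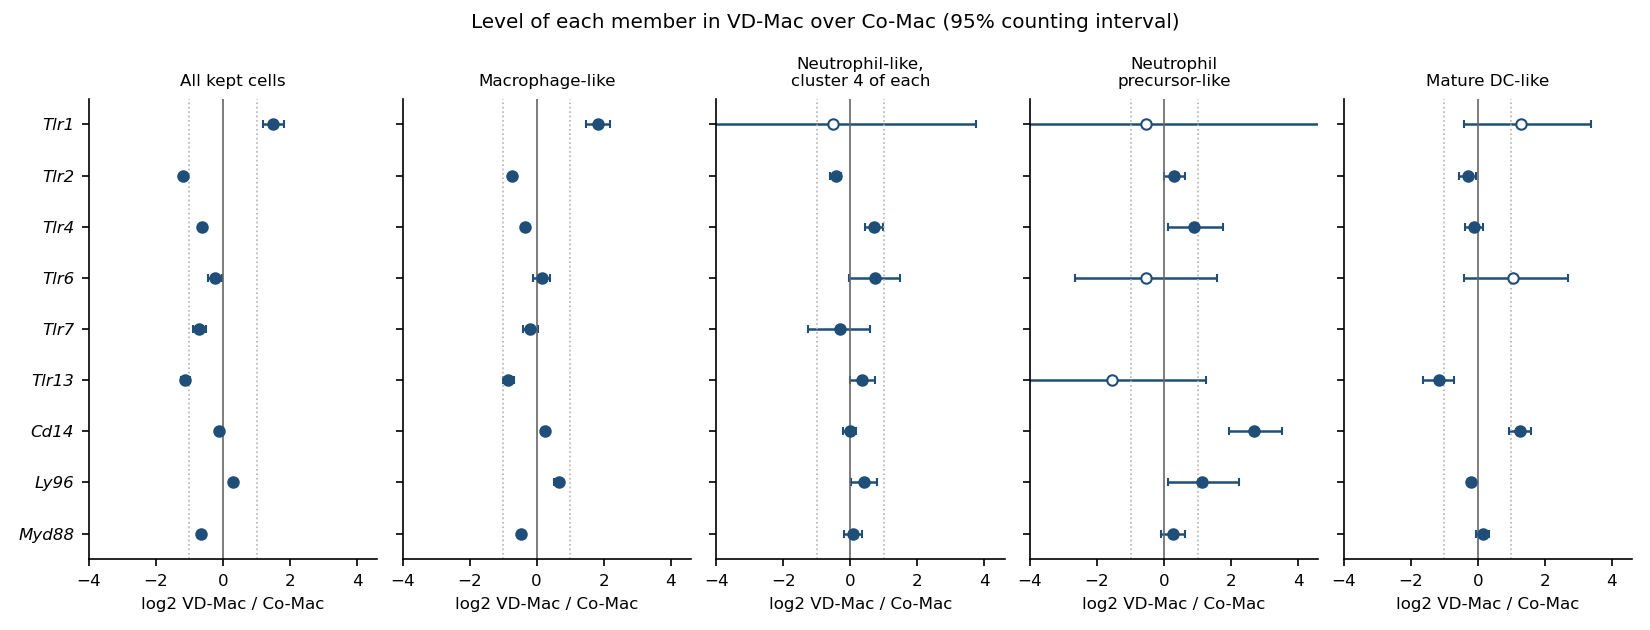
Log2 ratio of VD-Mac over Co-Mac for 9 members in each cell group, with exact 95% counting intervals; dotted lines mark 2-fold, open circles mark fewer than 10 UMIs in a library, intervals past the axis end at its edge, and a count of 0 has no point. Cd14 lies near 0 over all kept cells (-0.11) and in macrophage-like cells (0.26), and far above it in neutrophil precursors (2.67).

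Other cell types of the cultures gave a different picture from the macrophage-like cells. Monocyte-like cells were named in Co-Mac alone (123 cells, Cd14 at 20.2 CPM), so they gave no ratio. At resolution 0.8 they were named in both cultures. Cd14 was then 36.7 CPM in Co-Mac (334 cells) and 85.9 CPM in VD-Mac (536 cells). Whether those groups hold like cells was not tested. In the largest neutrophil cluster the median over all genes was itself 0.19, so ratios there are read against it. Cd14 was 115 CPM in Co-Mac and 113 CPM in VD-Mac (log2 -0.02, interval -0.21 to 0.17), with 27.6% of genes below it. Tlr4 was higher in VD-Mac, at 79.4 against 48.9 CPM (log2 0.70, interval 0.44 to 0.96), above 93.6% of genes. Tlr2 was 225 and 165 CPM (log2 -0.44, interval -0.59 to -0.29), a fall here as well. Markers of other types differed in the neutrophil-like class as a whole: the 6 monocyte markers summed to 681 CPM in Co-Mac and 244 CPM in VD-Mac, led by Ly6c2 and with Ms4a4c at 0, and the 10 macrophage markers to 944 and 562 CPM, led by Apoe and Csf1r. Its own 8 markers summed to 44414 and 34719 CPM, led by S100a8, and the part of these differences was not tested. Ly96 went from 25.8 to 34.3 CPM (log2 0.41, interval 0.03 to 0.79). Tlr13 (log2 0.36, interval -0.02 to 0.74), Tlr6 (0.73, -0.03 to 1.49), Tlr7 (-0.32, -1.27 to 0.58) and Myd88 (0.07, -0.19 to 0.34) had intervals that include 0, and Tlr1 had 2 UMIs and 1. Tlr9 had 0 in both, which allows up to 0.635 CPM in Co-Mac and 0.896 CPM in VD-Mac. Of 7 members that reached 10 CPM, 0 passed 2-fold upwards (1.77% of genes did) and 0 downwards (2.58% did). The whole class, which is not a like comparison because of cluster 9.0, also had 0 and 0 (2.18% and 3.17% of genes). These cells also had less Cyp24a1 RNA in VD-Mac, at 37.0 CPM against 638 CPM in macrophage-like cells and 932 CPM in neutrophil precursors. The share of stray Cyp24a1 UMIs is not known, so these levels do not measure how far each cell type responded.

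Neutrophil precursors, named from genes such as Elane, Prtn3 and Ngp, had the largest Cd14 ratio of the cell types compared. Prtn3 and Elane were among the leading genes of cluster 5.3 in Co-Mac and 5.2 in VD-Mac, but not of VD-Mac cluster 9.1, which was led by BC100530, Ngp and Stfa1. It had 16 UMIs over 93 Co-Mac cells (5.98 CPM) and 149 over 213 VD-Mac cells (38.1 CPM), a log2 ratio of 2.67 (interval 1.93 to 3.52). Both VD-Mac clusters of this type were high, with 36.8 CPM in cluster 5.2 and 47.6 CPM in cluster 9.1, against cluster 5.3 of Co-Mac. Cd14 was the 1 member past 2-fold upwards, where 5.46% of genes were, and 0 were lower (7.46% of genes). The size of the rise changed with the clustering: at resolution 0.3, where the Co-Mac group grew to 323 cells, the log2 ratio was 1.13. The 9 precursor markers summed to 10541 CPM in Co-Mac and 5280 CPM in VD-Mac, led by Prtn3 and Ngp, and the 8 neutrophil markers to 79936 and 100414 CPM, led by S100a8, with Retnlg at 0 in Co-Mac. The 6 monocyte markers summed to 2883 and 1261 CPM, led by Plac8 and Ly6c2, with Ms4a4c at 0 in both and Ccr2 in VD-Mac, and the 6 mature dendritic cell markers to 305 and 133 CPM, led by Ccl22, with Tmem150c at 0 in VD-Mac. The make-up of this group therefore differed between the cultures, and its part in the rise was not tested. Tlr4 (7.10 to 13.3 CPM; log2 0.91, interval 0.12 to 1.75) and Ly96 (4.11 to 8.96 CPM; log2 1.12, interval 0.11 to 2.25) had higher ratios too, from 19 and 11 UMIs in Co-Mac, but that of Tlr4 was 0.0180 at resolution 0.3.

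Mature dendritic cells, marked by Ccr7, Fscn1 and Ccl22, had little of the surface receptors. Cd14 was 2.73 CPM in Co-Mac and 6.50 CPM in VD-Mac (log2 1.25, interval 0.94 to 1.58), a rise under the minimum of 10 CPM. Tlr13 was 2.73 and 1.22 CPM (log2 -1.16, interval -1.64 to -0.70), which matches the direction of its fall in macrophage-like cells. Tlr2 was 5.87 and 4.76 CPM and Tlr4 5.61 and 5.20 CPM. Among the 2 members that reached 10 CPM, Ly96 and Myd88, 0 were higher (2.32% of genes) and 0 were lower (2.42%). The group's own 6 markers summed to 6378 CPM in Co-Mac and 4934 CPM in VD-Mac, led by Ccl22. The 8 neutrophil markers summed to 174 and 90.5 CPM, led by S100a8, with Retnlg at 0 in both. The 6 monocyte markers summed to 33.2 and 22.1 CPM, led by Vcan, with Ms4a4c at 0 in VD-Mac. The part of these differences was not tested. Conventional type 1 dendritic cells numbered 82 in Co-Mac and 119 in VD-Mac, and their counts were small: Cd14 had 13 UMIs in each, and Tlr1 had 0 UMIs in Co-Mac, which allows up to 2.58 CPM, and 12 in VD-Mac (7.51 CPM). Myd88 was 69.6 and 50.1 CPM in them (log2 -0.47, interval -0.94 to -0.01), and 0 members passed 2-fold upwards (9.24% of genes did) or downwards (7.02%). The 8 neutrophil markers went from 108 CPM in this group in Co-Mac, with Csf3r, Retnlg, Mmp9, G0s2 and Ly6g at 0, to 2005 CPM in VD-Mac, with Retnlg and Ly6g at 0 and S100a8 leading both. The 6 monocyte markers went from 24.1 CPM, led by Ccr2, to 218 CPM, led by Ifitm6 and with Ccr2 at 0. Ms4a4c was at 0 in both. The 10 macrophage markers went from 231 to 411 CPM, and the 6 markers of the type itself from 754 to 500 CPM. The part of these differences in the values of this group was not tested.

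Within VD-Mac, macrophage-like cells were also split by whether a Cyp24a1 UMI was seen. The 1546 cells with one had 16750 UMIs at the median, and the 249 without had 15273. Cd14 was 81.6 CPM (interval 78.4 to 84.9) in cells with a Cyp24a1 UMI and 110 CPM (interval 99.4 to 120) in those without. Tlr2 followed the same order, with 91.4 and 125 CPM, and so did Tlr13, with 9.75 and 15.2 CPM. Tlr7 was 7.03 and 11.1 CPM, but its intervals overlapped at their ends (6.12 to 8.03 and 8.02 to 14.9). Intervals also overlapped for Tlr1 (6.14 and 4.12 CPM), Myd88 (43.6 and 36.9 CPM) and Tlr4 (38.2 and 40.5 CPM). The same held for Ly96 (24.5 and 27.8 CPM) and Tlr6 (5.91 and 7.22 CPM), and Tlr9 had 2 UMIs and 0. The share of stray Cyp24a1 UMIs is not known, and a cell may lack one by chance, so the split does not tell responding cells from others.

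In the graft the question was which cells carry each receptor. Cd14, there at 19975 UMIs, was 3986 CPM in neutrophil-like cells, 1261 CPM in monocyte-like cells, 939 CPM in macrophage-like cells and 388 CPM in dendritic cells. It was 85.1 CPM in B lineage cells, 68.8 CPM in T cells and 27.1 CPM in fibroblasts. Neutrophil-like cells thus had the highest level, although macrophage-like cells, with more RNA, held 42.3% of all Cd14 UMIs against 29.6% in neutrophil-like and 24.0% in monocyte-like cells. Of the levels given here, only those of B lineage and T cells had overlapping intervals (64.3 to 111 and 57.5 to 81.7 CPM). The T cell value rested on a few barcodes: with possible doublets left out, 290 of the 301 cells remained and Cd14 was 8.98 CPM. The T cell level of Tlr6 likewise went from 10.6 to 2.81 CPM, and that of Tlr2 from 18.5 to 7.86 CPM. In fibroblasts, where 120 of 141 cells remained, Cd14 went from 27.1 to 18.0 CPM. Among T cells, cluster 7, led by Il17a and Trdc, had 119 CPM and cluster 3 had 38.3 CPM (log2 1.64, interval 1.10 to 2.19), and Tlr6 had 16 UMIs in cluster 7 and 4 in cluster 3. That pair of clusters was chosen after its values were seen, with 2 members higher where 10.9% of genes were and 0 lower where 10.4% were. It includes the possible doublets, which hold most of the T cell UMIs of Cd14 and Tlr6, so it describes the barcodes and not T cells.

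Tlr4 had the same order over the myeloid cells as Cd14, at 220 CPM in neutrophil-like, 84.3 CPM in monocyte-like and 34.9 CPM in macrophage-like cells. Ly96 was flatter, at 102, 54.3 and 55.7 CPM in these groups, and the last pair did not differ beyond counting error. Tlr2 was 476 CPM in neutrophil-like, 348 CPM in monocyte-like, 177 CPM in macrophage-like and 117 CPM in dendritic cells, with 18.5 CPM in T cells. All of these receptors were thus highest in the neutrophil-like cells of the graft. Tlr1 stood at 51.9, 23.2 and 9.90 CPM in neutrophil-like, monocyte-like and macrophage-like cells and at 22.1 CPM in dendritic cells, which do not differ from monocyte-like cells beyond counting error. Tlr6 was the most uneven over these named types, at 428 CPM in neutrophil-like cells against 33.2 CPM in monocyte-like and 11.5 CPM in macrophage-like cells. Neutrophil-like cells held 68.1% of its UMIs. Unnamed cluster 8, 41 cells led by Ccr3, held 11 Tlr6 UMIs. These were 1.18% of Tlr6 UMIs, from a cluster with 0.194% of all UMIs.

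The endosomal sensors divided between cell types. Tlr7 was highest in macrophage-like cells, at 23.6 CPM, with 17.9 CPM in monocyte-like and 8.76 CPM in neutrophil-like cells, and macrophage-like cells held 68.8% of its UMIs. Intervals for the macrophage-like and monocyte-like levels overlapped (20.5 to 27.0 and 13.9 to 22.7 CPM). Among the named cell types Tlr13 was highest in neutrophil-like cells, at 127 CPM, with 23.6 CPM in macrophage-like and 14.8 CPM in monocyte-like cells. Unnamed cluster 8 held 5 Tlr13 UMIs, 1.04% of them, from 0.194% of all UMIs. Tlr9 had 10 UMIs in the whole graft, 6 of them in monocyte-like cells, and 0 in neutrophil-like cells, which allows up to 2.02 CPM. Myd88 was also found outside the myeloid cells, at 117 CPM in neutrophil-like cells, 61.4 CPM in fibroblasts, 54.3 CPM in monocyte-like cells, 42.4 CPM in dendritic cells, 42.3 CPM in macrophage-like cells, 40.2 CPM in T cells and 19.8 CPM in B lineage cells. Endothelial cells, only 25 in number, held 3.76% of Myd88 UMIs and 2.54% of all UMIs, beside 19.2% and 16.1% in fibroblasts.

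**Figure D2:**
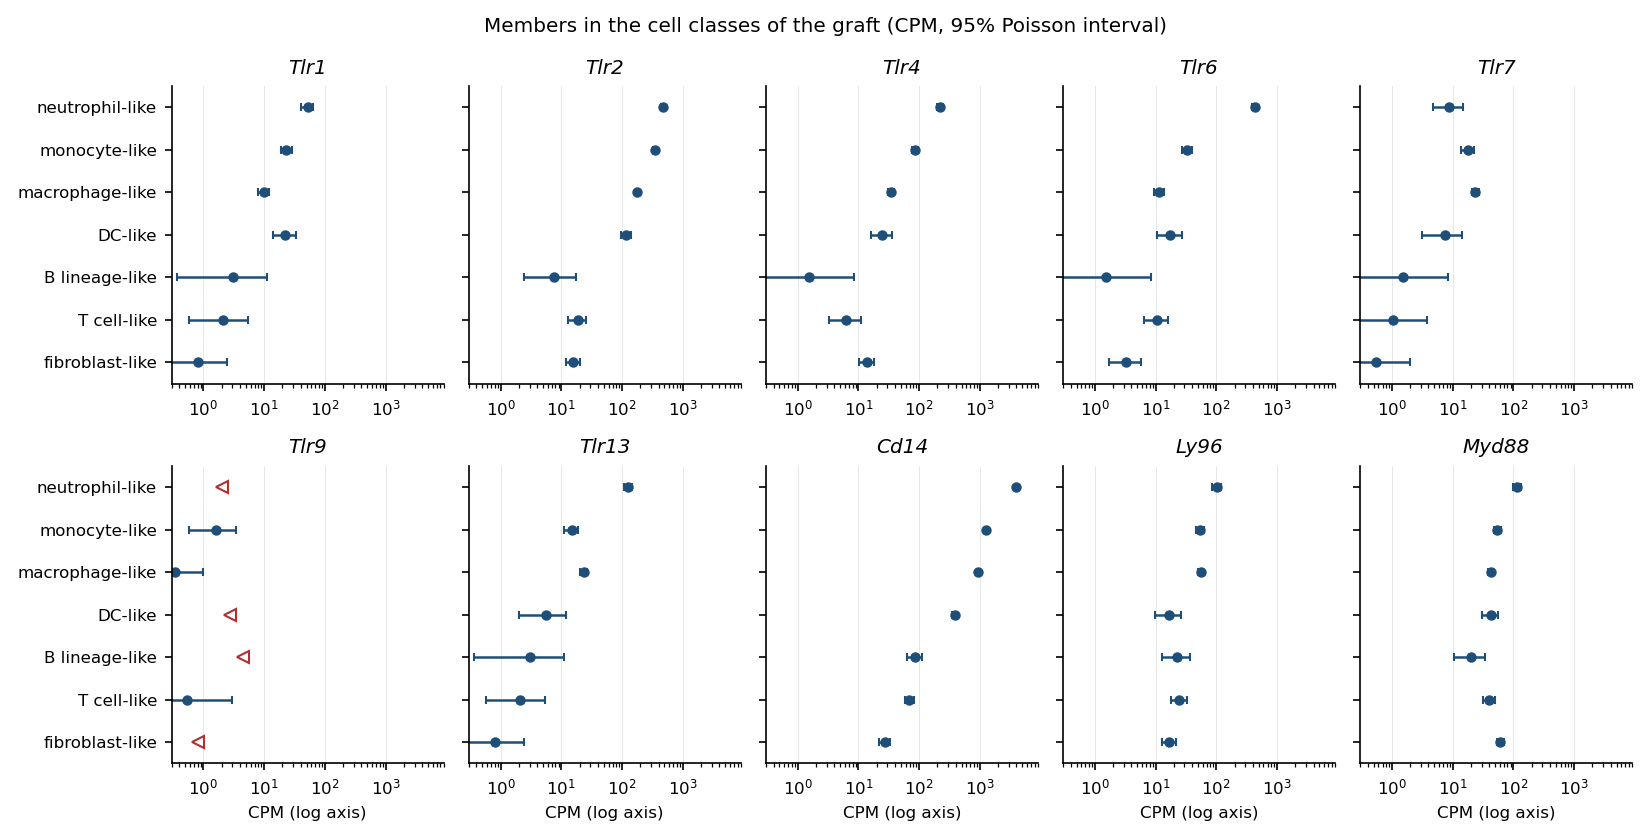
CPM of each member in the cell types of the graft on a log axis, with exact Poisson 95% intervals; red triangles mark the level that a count of 0 allows. Cd14 is at 3986 CPM in neutrophil-like cells and 939 CPM in macrophage-like cells, and Tlr7 is highest in macrophage-like cells at 23.6 CPM.

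Set against the monocyte-like cells of the graft, neutrophil-like cells had 6 of 9 members that reached 10 CPM at least 2-fold higher, where 13.6% of genes were, and 1 lower, Tlr7, where 56.4% were. Against macrophage-like cells it was 7 of 9 higher, where 15.4% of genes were, and again Tlr7 lower, where 56.7% were. Medians over all genes were -1.25 and -1.28, so the members stood out against a general shift downwards in the neutrophil-like cells. Tlr6 led with log2 ratios of 3.69 over monocyte-like and 5.22 over macrophage-like cells, followed over monocyte-like cells by Tlr13 with 3.11. Cd14 was at 1.66 and 2.09. Against T cells 8 of 8 members were higher (15.4% of genes) and 0 lower (62.5%), and against fibroblasts 7 of 8 (20.4%) and 0 (56.5%). Median depth was 2330 UMIs in neutrophil-like and 14430 in macrophage-like cells, and a few genes took a large part of the former: the 8 neutrophil markers summed to 126050 CPM, of which S100a8 was 59542 CPM. The same markers summed to 614 CPM in monocyte-like and 282 CPM in macrophage-like cells. Hbb-bs, a haemoglobin gene and the second leading gene of the monocyte-like cluster, was at 2883 CPM in neutrophil-like, 2722 CPM in monocyte-like and 29.7 CPM in macrophage-like cells. The part of depth, of red cell RNA and of these genes in the ratios was not tested.

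Neither myeloid type of the graft was uniform. In macrophage-like cluster 2, where all 6 genes of the Trem2 set (Trem2, Gpnmb, Spp1, Cd9, Fabp5 and Lpl) were higher than in clusters 1 and 4 taken as one, Cd14 was 1088 CPM. In cluster 4, where the same was true of the 6 genes of the Cd163 set, it was 490 CPM. Tlr4 had the opposite order, at 21.5 CPM in cluster 2 and 75.3 CPM in cluster 4, so Cd14 and its receptor did not run together over these macrophages. Tlr2 was 193 and 129 CPM, Tlr13 26.2 and 15.6 CPM, Tlr7 21.3 and 30.3 CPM, and Myd88 38.1 and 54.8 CPM. Ly96 did not differ beyond counting error (54.4 and 59.7 CPM). Among neutrophil-like cells the large cluster 0 had 4636 CPM of Cd14 and 545 CPM of Tlr6. Cluster 9, whose 40 cells had more of the granule genes Ngp, Camp and Ltf, had 1837 CPM of Cd14 and 40.6 CPM of Tlr6.

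Graft macrophage-like cells were set beside those of the cultures. Cd14 was 939 CPM in the graft against 70.9 CPM in Co-Mac (log2 3.73, interval 3.67 to 3.78) and 84.8 CPM in VD-Mac (log2 3.47, interval 3.41 to 3.53). The gap in Cd14 between graft and culture was therefore far larger than the one between the cultures. Cell type markers differed as well. The 10 macrophage markers summed to 18133 CPM in the graft, against 1759 CPM in Co-Mac and 2605 CPM in VD-Mac. In the same order, the 8 neutrophil markers summed to 282, 967 and 2101 CPM and the 6 monocyte markers to 139, 775 and 283 CPM. The 6 mature dendritic cell markers summed to 18.1, 414 and 124 CPM. The part of these differences in the ratios was not tested. Over Co-Mac, 4 of 8 members that reached 10 CPM were at least 2-fold higher in the graft (17.2% of genes were): Cd14, Ly96 at 1.82, Tlr7 at 1.47 and Tlr6 at 1.07. None was 2-fold lower, where 20.5% of genes were, and Tlr4 at -0.49 and Myd88 at -0.50 came nearest. Over VD-Mac, 4 of 8 were higher (20% of genes were): Cd14, Tlr7 at 1.66, Tlr13 at 1.18 and Ly96 at 1.16, and 0 were lower (19.6%). For neutrophils the graft was compared with cluster 4 of each culture. Cd14 was 3986 CPM there against 115 CPM in Co-Mac (log2 5.12) and 113 CPM in VD-Mac (log2 5.14), and Tlr6 was 428 CPM against 6.14 and 10.2 CPM (log2 6.12 and 5.40). Over Co-Mac 7 of 8 members were higher (18% of genes) and 0 lower (55.9%), and over VD-Mac 7 of 8 (16.2%) and 0 (58.8%), with medians over all genes of -1.29 and -1.46. Myd88, at 0.95 and 0.88, was the member short of 2-fold. The 8 neutrophil markers summed to 126050 CPM in graft neutrophil-like cells. In the whole neutrophil-like class of the cultures they summed to 44414 CPM in Co-Mac and 34719 CPM in VD-Mac. The 4 red cell markers, led by Hbb-bs, summed to 4175 CPM in the graft cells and to 0 in that class of both cultures. The part of these differences was not tested.

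Shares of cells with a UMI depend on depth, so each cell was also thinned to 2000 UMIs, with cells under that left out. Before thinning, Cd14 was seen in 70.2% of Co-Mac macrophage-like cells (median 23860 UMIs), in 63.9% of those in VD-Mac (16464) and in 88.1% of those in the graft (14430). After it, the shares were 12.2% in Co-Mac (interval 10.8 to 13.6), 15.9% in VD-Mac (14.3 to 17.7) and 66.6% in the graft (62.2 to 70.8). The order of the cultures thus differed with and without thinning. Cells that should lack Cd14 give a background for their own library only: graft T cells, possible doublets included, had 5.08% (interval 2.87 to 8.25) after thinning and 7.31% before it, at a median of 5552 UMIs. In Co-Mac the B lineage had 0 of 23 cells, which allows up to 13.04%, at a median of 7605 UMIs, and VD-Mac had no named B lineage cells. Fibroblasts of the graft were at 5% (31.9% unthinned, median 25429). In graft neutrophil-like cells the thinned share was 96.1% (interval 93.5 to 97.8; 95.1% unthinned, median 2330), with 157 of 513 cells left out. Monocyte-like cells had 72.1% (81.6% unthinned, median 7579.5) and dendritic cells 33.3% (58.8% unthinned, median 14369), against 12.8% (interval 4.30 to 27.4) in B lineage cells, which should also lack Cd14 (16% unthinned, median 12692). The interval of dendritic cells (22.2 to 46.0) overlaps that of B lineage cells. Culture neutrophil-like cells had 17.0% in Co-Mac (30.8% unthinned, median 3313) and 18.8% in VD-Mac (27.7% unthinned, median 2825), cluster 9.0 included, with 268 and 301 cells left out. Precursors had 1.08% in Co-Mac (16.1% unthinned, median 27069) and 9.86% in VD-Mac (32.4% unthinned, median 17307). Mature dendritic cells had 0.380% and 1.48% (3.68% and 8.51% unthinned, medians 14461 and 13697).

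**Figure D3:**
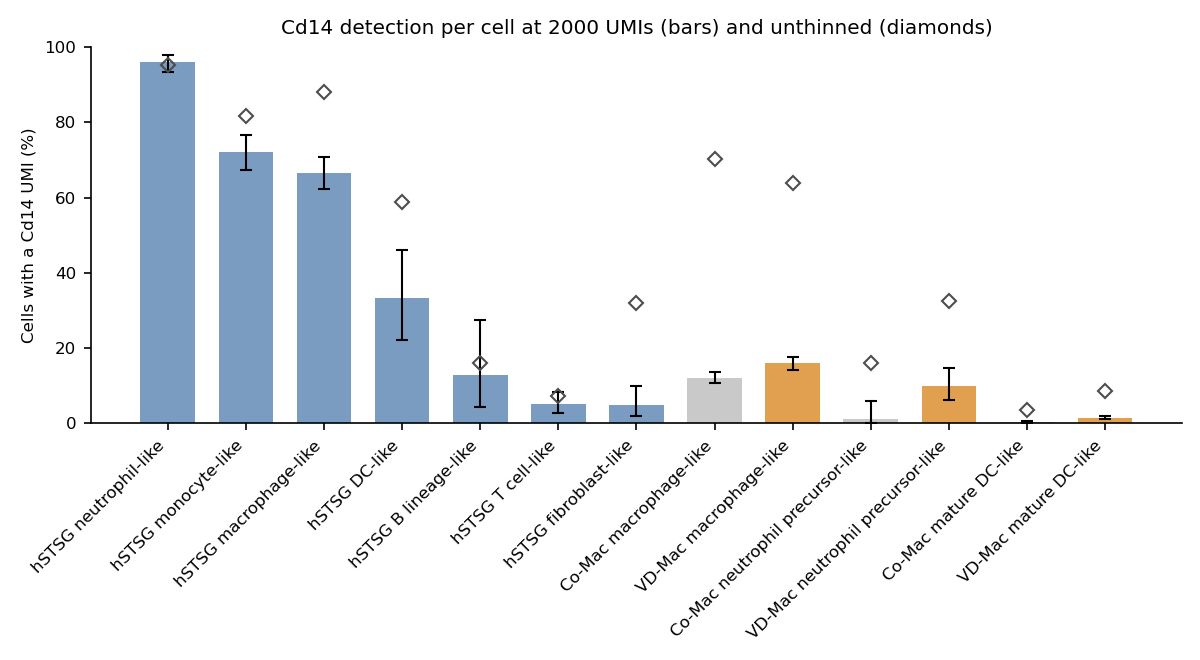
Percent of cells with a Cd14 UMI by cell type and library, after thinning each cell to 2000 UMIs and without thinning, with Clopper-Pearson 95% intervals. The graft neutrophil-like cells are at 96.1% after thinning, and graft T cells, which should lack Cd14, at 5.08%.

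Detection of Tlr4, Cd14 and Ly96 in the same cell, the set a cell needs for full lipopolysaccharide sensing, was rare at matched depth. After thinning it was 6.74% in graft neutrophil-like cells (24 of 356; 9.16% unthinned), 0.820% in macrophage-like (20% unthinned) and 0.775% in monocyte-like cells (12.1% unthinned). T cells of the graft had 0 of 295, which allows up to 1.02%, and 0.332% unthinned. Intervals for macrophage-like (0.224 to 2.09) and monocyte-like cells (0.160 to 2.25), from 4 and 3 cells, include that limit, and that of neutrophil-like cells (4.37 to 9.87) lies above it. In Co-Mac macrophage-like cells it was 0.0479% (19.8% unthinned) and in VD-Mac 0 of 1794, which allows up to 0.167% (13.04% unthinned).

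The wider pathway was read from a list of 62 further genes by role, of which 46 reached 10 CPM over all kept cells. By the 2-fold rule 3 were higher and 3 lower in VD-Mac, beside 2.16% and 4.63% of all genes, and the median log2 ratio was 0.03 against -0.10 over all genes. The even split depends on scaling: by median ratios, a comparison added after the values were seen, 5 were higher and 1 lower. Chaperones and partners of the receptors moved in both directions. Unc93b1, which carries the endosomal receptors to their compartment, rose from 134 to 348 CPM (log2 1.38), and Ly86, the partner of Cd180, from 48.5 to 98.4 CPM (log2 1.02). Lrrc59, which aids receptor transport, fell from 102 to 49.2 CPM (log2 -1.05), and the chaperone Hsp90b1 from 431 to 300.2 CPM. Unc93b1 thus rose while Tlr7 and Tlr13, which depend on it, did not. Cd180 itself was 17.4 CPM in Co-Mac and 12.8 CPM in VD-Mac.

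Downstream, the adaptor Tirap (13.8 and 14.3 CPM) and the transcription factor Irf5 (220 and 217 CPM) hardly differed, while the kinase Ikbkb went from 73.7 to 56.4 CPM. Of the inhibitors, Tnip3 went from 201 to 101 CPM (log2 -1.002), just past the limit, and Nfkbia, which holds nuclear factor kappa B in the cytoplasm, from 299 to 577 CPM (log2 0.95). Of the chemokine genes among the targets, only Cxcl2 fell, from 86.7 to 34.1 CPM (log2 -1.35). Ccl4 rose from 60.4 to 201 CPM (log2 1.73) and Ccl3 from 74.1 to 139 CPM (log2 0.91). Cxcl10, named after its values were seen, went from 1.70 to 5.42 CPM (log2 1.67), under the minimum of 10 CPM. In macrophage-like cells 46 of the 62 reached 10 CPM, with 8 higher and 2 lower, beside 3.49% and 5.7% of all genes. Ccl4 was 99.5 and 536 CPM there, Ccl3 115 and 337 CPM, Unc93b1 206 and 639 CPM, and Nfkbia 229 and 493 CPM. The 2 lower ones were Cxcl2 (148 and 64.1 CPM) and Socs1 (60.5 and 25.9 CPM), the latter named after its values were seen. In the largest neutrophil cluster 3 were higher, Ccl4, Irf7 and Ptgs2, and 1 lower, Tnip3, beside 1.77% and 2.58% of all genes, with Irf7 and Ptgs2 named after their values were seen. Mature dendritic cells had Unc93b1 higher (38.7 and 140 CPM) and Tnip3 lower (306 and 122 CPM), beside 2.32% and 2.42% of all genes.

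Genes whose pattern was most like that of a member were ranked by Pearson correlation of log2 CPM over 18 cell types, counted per library, among 6246 genes. These cell types share 3 libraries and differ in depth, so the ranking is a description. For Cd14 they were Atp6v0d1 (r 0.97), Rhbdf2, Fnip2, Sdcbp and Cd300ld. For Tlr4 they were C5ar1 (0.94), Cd300lb, Ccl3, Clec4e and Sirpb1c, and for Tlr2 Mpp1 (0.95), F10, Dmxl2, Itgam and C5ar1. C5ar1, the complement C5a receptor, was thus among the nearest for both. For Tlr7 the nearest were Ctsa (0.93), Clec4a3, Atp6ap1, P2rx7 and Mfsd1, and for Tlr13 Sirpb1b (0.95), Gm49368, Lilrb4a, Rab7 and Clec4d. Tlr9 never passed 1.58 CPM in these cell types, so its list (Il4 at 0.80, Krt71, Krt25, Mcpt8 and Sacm1l) is no finding. Between members, Tlr4 and Tlr13 had r 0.91, Tlr2 and Tlr4 0.90, Cd14 and Tlr7 0.86, and Cd14 and Ly96 0.56.

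Positions and sequence were taken from the annotation of the gene IDs on mouse build GRCm38. Tlr4 (ENSMUSG00000039005) lies at chr4:66827584-66930284 on the plus strand. Tlr1 (ENSMUSG00000044827, chr5:64924679-64933563) and Tlr6 (ENSMUSG00000051498, chr5:64952031-64960097) are neighbours on the minus strand, 18467 bases apart with no annotated gene between them. Their transcripts share a run of 229 identical bases, but at most 8 in a row over the last 500 bases, where 3′ reads fall. Counts of the pair can therefore be kept apart in the part of the transcript that this assay reads. Over the 18 cell types the pair had r 0.86, and both were highest in the neutrophil-like cells of the graft.

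Promoter windows of 250 bases before to 50 after the start were matched by symbol for 6 of the 10 members (Tlr1, Tlr2, Tlr6, Tlr9, Tlr13 and Myd88) from the RefSeq sequence of GRCm38.p6. Tlr4, Tlr7, Cd14 and Ly96 had none. They were searched on both strands for the sites AGGTCA and AGTTCA of nuclear receptors such as Vdr, for the PU.1 core GAGGAA, for a single exact form of the 10-base kappa B site (others were not searched), and for a pair of the former sites 3 bases apart (the DR3 element). Shares of all 32851 mouse windows with a match were 16.3%, 14.0%, 28.3%, 0.155% and 0.0122%. Windows of the 3 receptors whose level moved most between the cultures are shown, with matches in capitals. Tlr1 holds AGTTCA at bases 31 to 36 and GAGGAA at 228 to 233, in the window chr5:64933509-64933808 on the minus strand. Tlr1 has a second window, chr5:64932650-64932949, with 0 matches to any of these. Tlr2 holds AGGTCA on the opposite strand at bases 236 to 241, printed as TGACCT, in the window chr3:83841559-83841858 on the minus strand. Tlr13 holds GAGGAA at bases 168 to 173, in the window chrX:106143025-106143324 on the plus strand.
Tlr1: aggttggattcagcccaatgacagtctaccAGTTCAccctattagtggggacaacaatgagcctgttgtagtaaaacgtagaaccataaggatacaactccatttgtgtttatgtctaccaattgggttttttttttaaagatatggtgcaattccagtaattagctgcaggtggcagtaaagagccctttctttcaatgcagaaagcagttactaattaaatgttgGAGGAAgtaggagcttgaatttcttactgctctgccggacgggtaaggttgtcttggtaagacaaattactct
Tlr2: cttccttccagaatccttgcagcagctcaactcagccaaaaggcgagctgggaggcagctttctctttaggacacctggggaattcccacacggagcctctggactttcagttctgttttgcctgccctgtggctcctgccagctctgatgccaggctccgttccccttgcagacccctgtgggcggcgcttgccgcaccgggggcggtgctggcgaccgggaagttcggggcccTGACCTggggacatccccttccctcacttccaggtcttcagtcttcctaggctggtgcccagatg
Tlr13: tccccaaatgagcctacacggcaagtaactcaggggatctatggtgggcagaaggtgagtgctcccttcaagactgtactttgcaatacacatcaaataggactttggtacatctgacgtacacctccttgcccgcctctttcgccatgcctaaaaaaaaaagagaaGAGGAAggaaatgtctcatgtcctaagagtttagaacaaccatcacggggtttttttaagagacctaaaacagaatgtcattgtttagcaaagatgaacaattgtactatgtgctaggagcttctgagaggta
The window of Tlr9 holds 1 AGGTCA and 2 GAGGAA, those of Tlr6 and Myd88 none of these, and that form of the kappa B site and the DR3 element were found in 0 of the members' windows. A match is a run of letters, and nothing is drawn from one about binding.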

How the data were processed

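The deposited files hold raw UMI counts per gene and barcode, made by the authors with Cell Ranger 3.1.0 per the file headers. Barcodes were kept by the limits given at the start, and hashtag antibodies were left out. Levels are CPM over the summed UMIs of a group of cells with exact Poisson 95% intervals, ratios have exact conditional binomial intervals, and shares have Clopper-Pearson intervals, all for counting error only. Medians over genes and the percent of genes below a member are of ratios with 1 CPM added to each level. A gene counts as changed at 2-fold with at least 10 CPM in the higher group. A count of 0 is given the level of 3 counts. Each library was clustered by itself with Seurat 5.3.0 (R 4.3.3, Matrix 1.6.5), with log normalization to 10000, 2000 variable genes without the members and pathway genes, 15 principal components, 15 neighbours and resolution 0.5, and clusters led by markers of several types were clustered again. Other steps used Python 3.11.15, numpy 2.4.6, scipy 1.17.1, pandas 2.3.3 and matplotlib 3.10.9, and were checked on simulated data.

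Genes named are the 10 members, Cyp24a1 and Vdr, each gene of the pathway list past 2-fold over all kept cells, the one of each role with the highest Co-Mac level, and the 5 genes most like each of Cd14, Tlr4, Tlr2, Tlr7, Tlr9 and Tlr13 (log2 of CPM plus 5, genes with at least 50 CPM in a cell type of at least 50 cells). Other genes are said to be named after their values were seen, and genes that lead clusters only identify them. The members and lists were chosen with earlier results of these data known. The naming rules, the threshold for clusters of several types, the platelet genes that withhold a name and the doublet rule were settled after clusters were seen, and Pf4 was taken out of the platelet genes after ratios of Cd14 with it had been seen. Other settings varied the filters, scaling, clustering, thresholds and thinning. The labels and the study's methods name other genome builds than that of the gene IDs, so coordinates are those of the GENCODE M21 annotation of the IDs.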

Additional observations from a re-analysis of the deposited data

Results flagged for a closer look

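Some members moved in opposite directions in different cell types of the cultures, with counting intervals on either side of 0. Tlr4 fell in VD-Mac in macrophage-like cells (log2 -0.35) and rose in neutrophil precursors (0.91) and in the largest neutrophil cluster (0.70). Ly96 fell in mature dendritic cells (-0.21) and rose in macrophage-like cells (0.66), neutrophil precursors (1.12) and the largest neutrophil cluster (0.41). With 1 library per condition, these differences between cell types were not tested. Medians over all genes also differed between the cell types, from -0.10 in macrophage-like cells to 0.19 in the largest neutrophil cluster, and the Tlr4 value in precursors was 0.02 at resolution 0.3.

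Kept graft cells carry 1195935 UMIs of hashtag antibodies, a kind of feature that the cultures lack. The labels do not say what the hashtags mark, and no value given here uses them.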

How the results depend on the processing

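Settings were changed one at a time, except that Pf4 was put back among the platelet genes together with a new resolution or number of components. A few were chosen after the data were seen. Of the all-cell log2 ratios of VD-Mac over Co-Mac, 65 of 70 kept their sign, as did 255 of 275 ratios within cell types. For ratios of graft over culture it was 16 of 18. Scaling by median ratios moved Cd14 to -0.0312 over all cells and 0.35 in macrophage-like cells, and gave 5 pathway genes higher and 1 lower. A mitochondrial limit of 5% moved Cd14 to -0.24 and left 1 member lower, Tlr2. The mean over cells of CPM gave -0.0122, with Ly96 at 0.0107, 0 members lower, and 3.67 and 3.37 for graft over Co-Mac and VD-Mac macrophage-like cells. Weighting cell types as in Co-Mac turned Cd14 to 0.30 and Tlr6 to 0.24, and left Ly96 at 0.10, with 0 members lower. A 1.5-fold rule gave 4 members lower and 465 and 984 genes higher and lower. A minimum of 50 CPM gave 1 member lower, 75 and 140 genes, and a pathway median of -0.0155 in place of 0.03.

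Clustering also changed ratios. In macrophage-like cells at resolution 0.8 with Pf4 among the platelet genes, Tlr7 was -1.38, Tlr13 -1.69 and Tlr2 -1.14. VD-Mac then had 1070 such cells in place of 1585, and Co-Mac 1953 as before. In type 1 dendritic cells Tlr2, at -0.32 from few UMIs, was -4.01 at resolution 0.3 and -3.94 at 0.8. The macrophage-like ratio of Cd14 was 0.0489 at resolution 0.3, 0.0206 at 0.8 and 0.19 without possible doublets. It was 0.0609 with unnamed macrophage-led clusters added and 0.0967 with cycling clusters weighted as in Co-Mac, where Tlr7 was -0.44. With cultures clustered together Cd14 was 77.2 CPM in Co-Mac and 95.3 CPM in VD-Mac. With 30 principal components it was 70.0 and 86.7 CPM. Over 11 settings the ratio ranged from -0.40 to 0.35, and 9 kept its sign. With Pf4 among the platelet genes this Cd14 ratio was -0.40 at resolution 0.8 and -0.15 with 30 principal components. The latter left 433 of 1581 VD-Mac macrophage-like cells. The whole neutrophil-like class, at 0.21, went to -0.13 at resolution 0.3, 0.44 at 0.8, -0.0790 with cultures clustered together and -0.0176 in the largest cluster. Graft Cd14 was 1215, 1381 and 1364 CPM in monocyte-like cells at resolutions 0.3 and 0.8 and with 30 components. In macrophage-like cells it was 639 CPM at 0.8 and 987 CPM without doublets. At 0.8 only 228 graft cells were named macrophage-like, in place of 505. Unnamed graft cells then numbered 503, with Cd14 at 1123 CPM.

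Thinning to 1000 UMIs gave Cd14 shares of 6.89% and 8.91% in macrophage-like cells of Co-Mac and VD-Mac, 10.98% and 9.04% in their neutrophil-like cells, and 46.6%, 88.8% and 53.7% in graft macrophage-like, neutrophil-like and monocyte-like cells. Unthinned they were 70.2%, 63.9%, 30.8%, 27.7%, 88.1%, 95.1% and 81.6%. Tlr4, Cd14 and Ly96 together gave 0%, 2.20% and 0% in those graft cells at 1000, and unthinned 20% and 12.1% in its macrophage-like and monocyte-like cells, 19.8% in Co-Mac and 13.04% in VD-Mac macrophage-like cells. The cause was not tested for any of these. No paired analysis was possible because each condition has a single library and the labels pair no samples.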

Other observations

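All values come from 1 library per condition, so no spread between animals or cultures is known, and the 5 graft mice were not told apart. Cell types were named from RNA alone, and unnamed clusters held more of VD-Mac than of Co-Mac. In droplet data free RNA adds counts to cells that do not make a gene. Surface protein, which is what Cd14 and Tlr4 act through, was not measured. The 3′ reads do not separate transcripts of a gene. Levels in the graft and in the cultures differ in tissue, preparation and depth as well as in cell state, and these cannot be told apart.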
